A study of Mus musculus with 8 samples.

Results

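The genes of the proteasome were followed in the cortex of mouse embryos with and without Nuak1. They were taken as the rows of the count table whose symbol begins with Psma, Psmb, Psmc, Psmd, Psme, Psmf or Psmg and a number, with at least 80 counts over the 8 libraries. Of the 21165 rows of the table, 48 matched the symbols and 45 of these reached the minimum. They held 16 genes of the 20S core (Psma and Psmb), 19 genes of the 19S particle (Psmc and Psmd) and 9 activators, inhibitors and assembly chaperones (Psme, Psmf and Psmg). The remaining member was Psmc3ip, a cofactor of meiotic recombination that shares only the beginning of its name, and it is given apart. Psma8 (25 counts), Psmb9 (54 counts) and Psme2b-ps (19 counts) lay below the minimum, and Psmb8 with 88 counts lay just above it. Members were thus taken in by name and abundance, but the family itself was chosen with earlier results of these data known. All 45 passed the filter on low counts and were tested, and Psmd1 was not analysed here.

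Cortices came from embryos at E18.5, of which 4 were constitutive Nuak1 KO and 4 were WT, from a colony kept on a C57Bl/6JRj background. Nuak1 encodes a kinase of the AMPK family, and every cell of a KO embryo lacks it, so that its loss in neurons and in other cells cannot be told apart. KO animals of this line do not survive birth. The labels give 2 males among the KO embryos, 1 male among the WT embryos and 3 litters, but the columns of the table carry only the genotype and a running number. Libraries are therefore named by these, as in KO library R1, with no sex or litter, and p-values measure the spread between these 8 embryos. In tissue of mixed cells, fewer cells of a type and less RNA per cell cannot be told apart.

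KO libraries held 11027082 to 27014858 counts and WT libraries 9643711 to 18940484. Nuak1 stood at 14.2 ± 4.35 normalized counts in KO against 1204 ± 260 in WT (both SD, n = 4), so that every column followed its genotype. Its log2 fold change was -6.49 (standard error 0.22), with an adjusted p of 1.2e-07 from edgeR's quasi-likelihood test. A normalized count is a count put on the scale of an average library after TMM normalization. KO library R1 stood apart from the others in markers of other tissues. Of 8 meningeal fibroblast markers, 5 passed the filter on low counts, all with a log2 fold change above 0, and their summed level reached 9496 normalized counts in KO library R1, against 258 to 490 in the other 7 libraries. The 10 endothelial markers summed to 5334 in KO library R1, to at most 4073 in the other KO libraries and to 3267 to 3728 in WT. All 10 had a log2 fold change above 0, as did all 9 microglial markers, which summed to 1138 in KO library R1, to at most 819 in the other KO libraries and to 576 to 799 in WT. Of 7 red blood cell markers, 5 were tested and summed to 1686 to 7059 in KO and 1591 to 3805 in WT, with 4 of 5 above 0. Among the cortical neuron markers, Bcl11b and Fezf2 of the deep layers were lower in KO (log2 fold changes of -0.30 and -0.36), each at an unadjusted p under 0.05. The part of these markers in the proteasome results was not tested. The called members are therefore given without KO library R1 too.

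The proteasome is the large protease of the cytosol and nucleus that degrades proteins tagged with ubiquitin, and in developing neurons it is known for its part in axon growth and synapse formation. Its barrel, the 20S core, is a stack of rings. The outer rings are made of alpha subunits, which form the gate, and the inner rings of beta subunits, some of which carry the catalytic sites. The 19S particle caps the barrel, binds ubiquitin chains, removes them and unfolds the substrate with a ring of ATPases. Other caps, such as the Psme activators, open the gate without the need for ubiquitin, and dedicated chaperones assemble both parts. Interferon replaces the catalytic subunits by induced ones, giving the immunoproteasome.

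Core 20S genes had slightly higher means in KO, whereas 19S genes lay on both sides of 0. Of the 16 genes of the 20S core, 15 had a log2 fold change above 0, as 45.6% of all 12699 genes tested did, and their median was 0.11. For the 19 genes of the 19S particle the median was 0.00037, with 10 above 0, a count that ranged from 9 to 15 over the other settings tried on all 19. The difference between the core and the 19S particle carries no test, since genes are not replicates. For the activators, the inhibitor and the chaperones the median was -0.01, with 4 of 9 above 0. Over all genes tested the median was -0.01. At an unadjusted p under 0.05 from edgeR, 9 members (20.0%) were higher in KO, against 4.51% of all genes, and a member past this threshold is named called here. With DESeq2 there were 14, against 4.51% of all genes with that test. In the other direction there were 0, against 3.18% of all genes. The 9 comprised 6 of the 20S core (Psma1, Psma3, Psma4, Psma5, Psmb3 and Psmb10), Psmc6 and Psmd6 of the 19S particle, and the activator Psme2.

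These differences were small. After Benjamini-Hochberg adjustment over all genes, 0 of the 45 members passed 0.05 with edgeR and 0 with DESeq2. Of all genes, 0.0709% passed with edgeR, and 70 of 12699 genes passed with DESeq2. The smallest adjusted p was 0.513 with edgeR's quasi-likelihood test and 0.174 with DESeq2, both for Psma4. With an absolute log2 fold change over 0.25 added to the unadjusted p, the thresholds stated in the study's methods, 1 member was called, Psmb10, against 4.25% of all genes. In 3 members every KO library was above every WT library (Psma4, Psmc1 and Psme2), against 2.64% of all genes. There were 0 with every KO library below every WT library, against 1.85% of all genes. When each library was left out in turn, between 4 and 12 members had an unadjusted p under 0.05 and were higher in KO, with 4 without KO library R3 or without WT library R1 and 12 without KO library R2 or without WT library R4. The share of all genes moved with them, to 3.22% and 3.30% in the former fits and 5.89% and 7.05% in the latter. Without KO library R1 there were 6, against 3.17% of all genes, all of them among the 9, and the median of the core was 0.11. Psma3, Psma4 and Psmb3 stayed under 0.05 in all 8 of these fits. All 9 kept a log2 fold change above 0 in each of them.

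The 9 called members are spread over the genome. In NCBIM37, the assembly behind mm9, Psma4 at chr9:54798597-54805837, Psma3 at chr12:72075608-72097334, Psma5 at chr3:108059844-108082892, Psma1 at chr7:121408120-121419632, Psmb3 at chr11:97564713-97574814 encode parts of the core. Psmb10 at chr8:108459628-108462292 encodes its induced subunit, Psmc6 at chr14:45949504-45969367 and Psmd6 at chr14:14944698-14953498 encode parts of the 19S particle, and Psme2 at chr14:56206278-56209950 encodes the activator.

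**Figure D1:**
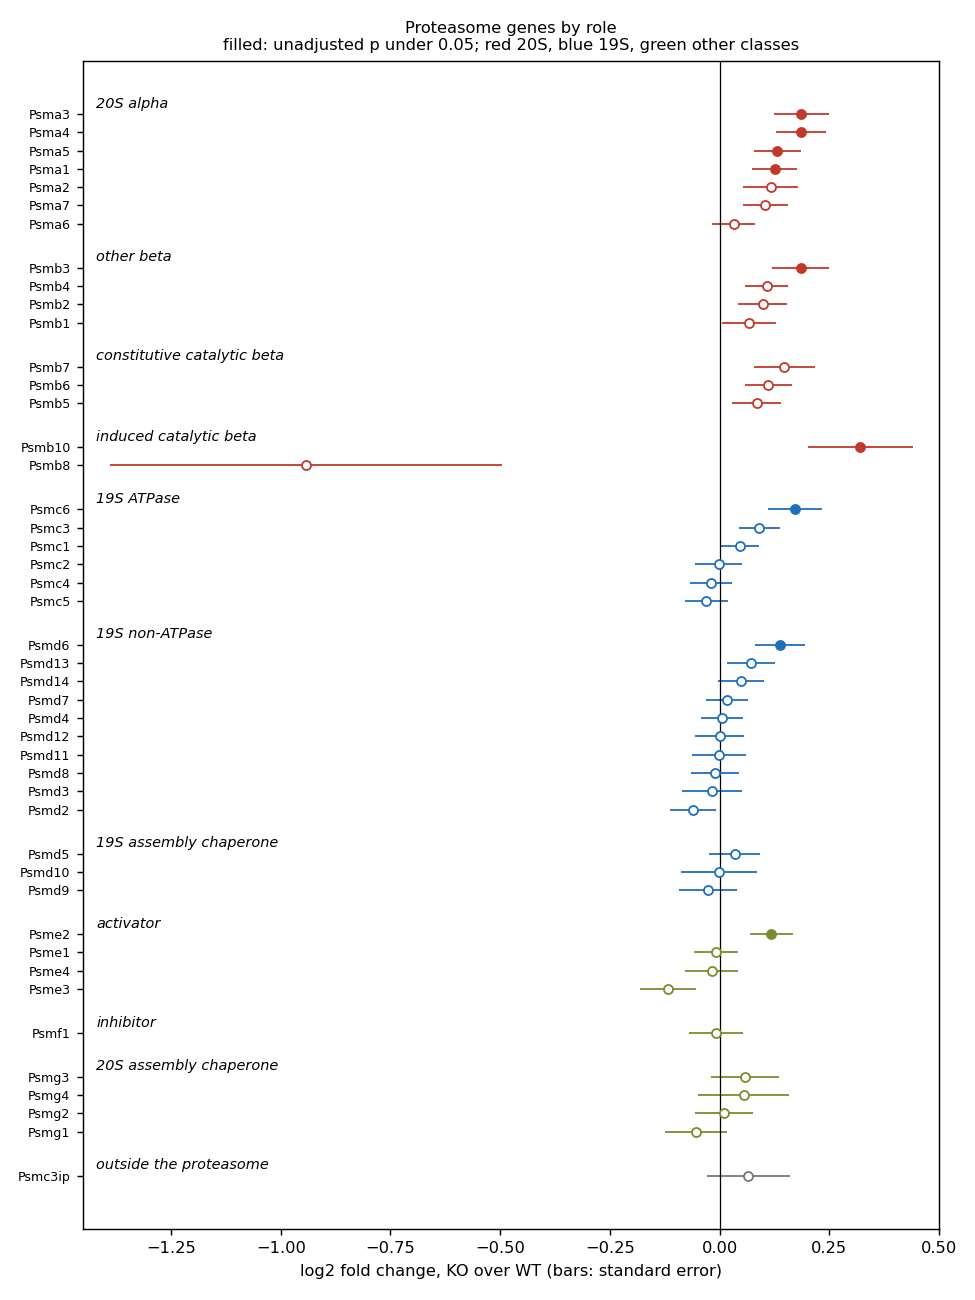
Log2 fold change of each of the 45 members, KO over WT, with its standard error as a bar (n = 4 libraries a genotype), grouped by role. Filled points have an unadjusted p under 0.05; 15 of the 16 core genes (red) lie above 0, while the 19 genes of the 19S particle (blue) lie on both sides.

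All 7 alpha subunits measured had a log2 fold change above 0, from 0.03 for Psma6 to 0.19 for Psma3, and 4 of them had an unadjusted p under 0.05. Psma4 had 4134, 3728, 4097 and 3767 normalized counts in KO libraries R1 to R4, and 3497, 3631, 3210.5 and 3491 in WT libraries R1 to R4. The lowest KO library thus lay above the highest WT library. Its mean was 3932 ± 214 in KO against 3457 ± 177 in WT (both SD, n = 4), a log2 fold change of 0.19 (standard error 0.06, unadjusted p = 0.00803 from edgeR). Without KO library R1 it was 0.17, with an unadjusted p of 0.0213 from edgeR. Psma4 is one of the genes whose counts may be uncertain, since 66.4% of the windows of 100 bases along its transcript occur elsewhere in the genome with at most 2 mismatches. It also shares exon bases with AY074887 on the opposite strand.

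Psma3, another subunit of the outer ring, had 5567, 4826, 5239 and 4995 normalized counts in KO and 4483, 4447, 4259.5 and 4951 in WT. Only WT library R4 reached into the KO range. Its mean was 5157 ± 322 in KO against 4535 ± 294 in WT (both SD, n = 4), a log2 fold change of 0.19 (standard error 0.06, unadjusted p = 0.0128 from edgeR). Without KO library R1 it was 0.16 (unadjusted p = 0.0337 from edgeR). Windows found elsewhere made up 26.9% of those along its transcript. For Psma5 the KO libraries held 3744, 3435, 3719 and 3593 normalized counts and the WT libraries 3276, 3411, 3084 and 3463. WT library R4 was above KO library R2, and the means were 3623 ± 142 for KO and 3308 ± 169 for WT (both SD, n = 4). The log2 fold change was 0.13 (unadjusted p = 0.0320 from edgeR), with 78.1% of windows found elsewhere. Psma1 has no such window. It had 4373, 3945, 4306 and 4098 normalized counts in KO and 3789, 3899.6, 3687 and 3964 in WT, so that again WT library R4 was above KO library R2. Means were 4181 ± 196 for KO and 3835 ± 122 for WT (both SD, n = 4), and the log2 fold change was 0.12 (unadjusted p = 0.0321 from edgeR). Without KO library R1 neither Psma5 nor Psma1 passed, with unadjusted p of 0.0632 and 0.0670 from edgeR. The other alpha subunits, Psma2, Psma6 and Psma7, had log2 fold changes of 0.12, 0.03 and 0.10 and did not pass.

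**Figure D2:**
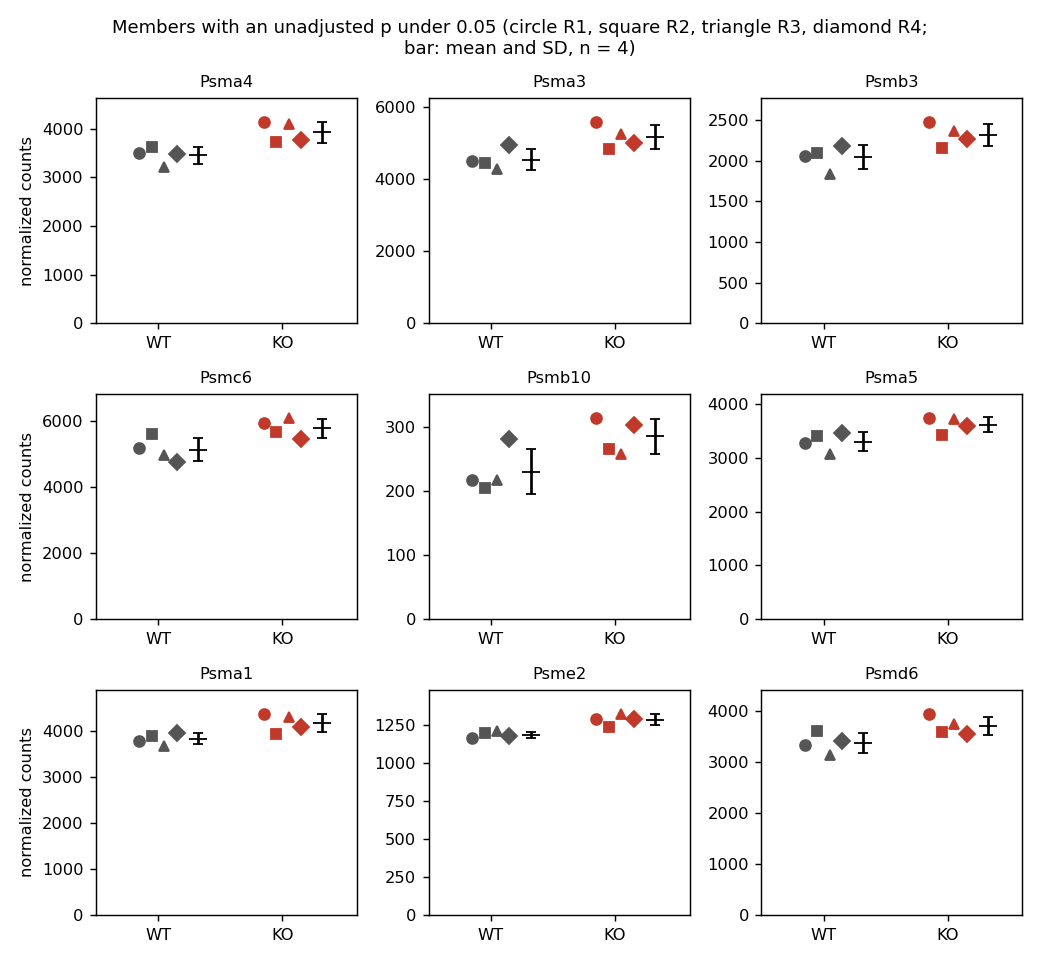
Normalized counts of the 9 members with an unadjusted p under 0.05, 1 point per library, with mean and SD (n = 4) beside the points. Psma4 (3728 to 4134 in KO, 3210.5 to 3631 in WT) and Psme2 are the 2 panels without overlap; in Psmb10, WT library R4 lies at 282, within the KO range.

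The 4 beta subunits without a catalytic site all had log2 fold changes above 0, and Psmb3 had the largest of them. In KO it had 2471, 2159, 2365 and 2271 normalized counts, and in WT 2052, 2091, 1835 and 2181. WT library R4 lay just above KO library R2. The mean was 2317 ± 133 in KO against 2039.6 ± 147 in WT (both SD, n = 4), a log2 fold change of 0.18 (unadjusted p = 0.0154 from edgeR), and without KO library R1 it was 0.16 (unadjusted p = 0.0418). The sequence of Psmb3 is the least distinct among the members, with 95.5% of windows found in 4 other places. Psmb1, Psmb2 and Psmb4 had log2 fold changes of 0.07, 0.10 and 0.11, with none under an unadjusted p of 0.05.

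The 3 constitutive catalytic subunits had log2 fold changes above 0 and did not pass the test with edgeR. Psmb7, which carries the trypsin-like activity, had 4039.6, 3447, 4128 and 3677 normalized counts in KO and 3315, 3583, 3229 and 3691 in WT. KO library R2 lay below 2 of the WT libraries, and the log2 fold change was 0.15 (standard error 0.07, unadjusted p = 0.0569 from edgeR). Psmb6, with the caspase-like activity, had 3550.2, 3379.8, 3559 and 3394 normalized counts in KO and 3300.4, 3423, 3003 and 3128 in WT. WT library R2 lay among the KO libraries, and the log2 fold change was 0.11 (standard error 0.05, unadjusted p = 0.0634 from edgeR). Psmb5, with the chymotrypsin-like activity, had 1545, 1531, 1572 and 1467 normalized counts in KO and 1486, 1436, 1333 and 1515 in WT. Here 2 of the WT libraries were above the lowest KO library. Its log2 fold change was 0.08 (standard error 0.06, unadjusted p = 0.157 from edgeR), and 83.3% of its windows occur elsewhere. With DESeq2, Psmb6 and Psmb7 had an unadjusted p of 0.0485 and 0.0474.

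The induced subunits, which take the place of the constitutive ones in the immunoproteasome, were scarce in this tissue and had log2 fold changes of opposite sign. Psmb10, the counterpart of Psmb7, had 314, 266, 258 and 304 normalized counts in KO and 217, 204, 217 and 282 in WT. WT library R4 lay above 2 of the KO libraries and well above the other WT libraries. The mean was 285 ± 27.5 in KO against 229.9 ± 35.3 in WT (both SD, n = 4), 24.9% higher in the fit. Its log2 fold change of 0.32 (standard error 0.12, unadjusted p = 0.0209 from edgeR) was the largest among the members higher in KO. It was 0.28 without KO library R1 (unadjusted p = 0.0491 from edgeR) and 0.43 without WT library R4 (unadjusted p = 0.0014 from edgeR). No window of Psmb10 occurs elsewhere. Per base of transcript, Psmb10 made up 6.41% ± 0.697 (SD, n = 4) of the sum of Psmb7 and Psmb10 in KO and 5.72% ± 0.647 (SD, n = 4) in WT, with ranges that overlap.

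Psmb8, the counterpart of Psmb5, had counts of 5, 2, 12 and 18 in KO libraries R1 to R4 and 10, 15, 9 and 17 in WT libraries R1 to R4. Scaled to library size these were 6.41, 3.04, 7.43 and 12.1 normalized counts in KO and 10.3, 13.1, 11.9 and 28.7 in WT. The log2 fold change of -0.94 had a standard error of 0.45 (unadjusted p = 0.0585 from edgeR), and at these counts no difference was detectable. It was the only core gene below 0. It was -0.57 without WT library R4 (unadjusted p = 0.205 from edgeR), in which its level was highest. Psmb8 shares exon bases with Gm20496 on the opposite strand.

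Among the 6 ATPases of the 19S base, which unfold the substrate, 3 had a log2 fold change above 0 and Psmc6 was the one called. Psmc6 had 5918, 5671, 6077 and 5432 normalized counts in KO and 5184, 5585, 4974 and 4748 in WT. WT library R2 was above KO library R4, and the means were 5774 ± 283 for KO and 5123 ± 356 for WT (both SD, n = 4). The log2 fold change was 0.17 (standard error 0.06, unadjusted p = 0.0169 from edgeR), and it was 0.17 without KO library R1 too (unadjusted p = 0.0327 from edgeR). Psmc1 showed no overlap with a smaller difference. It had 4108, 4066, 4162 and 4106 normalized counts in KO and 4039, 4027, 3849 and 4008 in WT. Although no libraries overlapped, the log2 fold change was 0.05 (standard error 0.04, unadjusted p = 0.305 from edgeR). In Psmc1, 33.8% of windows occur elsewhere. Psmc2, Psmc3, Psmc4 and Psmc5 had log2 fold changes of -0.0024, 0.09, -0.02 and -0.03 and did not pass.

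Of the 10 non-ATPase genes of the 19S particle, 6 had a log2 fold change above 0 and Psmd6, a subunit of the lid, was called. It had 3937, 3591, 3735 and 3555 normalized counts in KO and 3321, 3604, 3139 and 3412 in WT. WT library R2 lay above 2 of the KO libraries. Means were 3704 ± 173 in KO against 3369 ± 193 in WT (both SD, n = 4), and the log2 fold change was 0.14 (standard error 0.06, unadjusted p = 0.0356 from edgeR). Without KO library R1 it was 0.11, and the unadjusted p was 0.0818 from edgeR. The lowest of this group was Psmd2, a docking site for ubiquitin receptors, at -0.06. Psmd14, the deubiquitinase of the lid, had 0.05 and Psmd4, a ubiquitin receptor, 0.0048, and neither passed. The 3 chaperones that help build the base, Psmd5, Psmd9 and Psmd10, had 0.03, -0.03 and -0.0016. Psmd5 had 1511, 1453, 1439 and 1291 normalized counts in KO and 1394, 1408, 1404 and 1346 in WT, so that the KO libraries spanned the whole WT range.

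Among the activators, Psme2 was called and the other 3 were not. Psme2, which forms a ring with Psme1, had 1291, 1239, 1321 and 1287 normalized counts in KO and 1162, 1194, 1208 and 1177 in WT. Every KO library was above every WT library. Means were 1285 ± 34.0 for KO and 1185 ± 19.7 for WT (both SD, n = 4), and the log2 fold change was 0.12 (standard error 0.05, unadjusted p = 0.0340 from edgeR). Without KO library R1 it was 0.12 (unadjusted p = 0.0440 from edgeR). In Psme2, 75.9% of windows occur in another place of the genome. Its partner Psme1, which lies beside it on chromosome 14, had a log2 fold change of -0.0091 (unadjusted p = 0.858 from edgeR). Psme3, whose product forms a cap in the nucleus, was the lowest of the group. It had 1443, 1586, 1499 and 1409.7 normalized counts in KO and 1608, 1533, 1776 and 1524 in WT. KO library R2 lay within the WT range and the other 3 below it, and the log2 fold change was -0.12 (standard error 0.06, unadjusted p = 0.0905 from edgeR). Psme4, a large nuclear activator, had -0.02.

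Psmf1, an inhibitor of the core, had 623, 659.9, 655 and 687 normalized counts in KO and 648, 634, 699 and 664 in WT. Its libraries were mixed, and the log2 fold change of -0.01 changed sign under 4 other settings and without any 1 of 3 libraries. The chaperones of the alpha ring, Psmg1 to Psmg4, had log2 fold changes of -0.05, 0.0097, 0.06 and 0.05, with none under an unadjusted p of 0.05. Psmg3, the highest of them, had 356, 362, 368 and 335 normalized counts in KO and 369.9, 336, 326 and 331 in WT. Psmc3ip, outside the proteasome, had 327, 315, 347 and 328 normalized counts in KO and 335, 305, 350.1 and 267 in WT, and its log2 fold change was 0.07 (standard error 0.09). It shares 21.2% of its exon bases with Mlx on the opposite strand.

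Summed over genes, the 20S core had a larger relative difference than the 19S particle. The 16 core genes together had 51248, 46775, 51001 and 48322 normalized counts in KO libraries R1 to R4 and 45308, 46377, 42415 and 47218 in WT libraries R1 to R4. KO library R2 was the lowest of KO and lay below WT library R4. The mean was 49337 ± 2161 in KO against 45330 ± 2094 in WT (both SD, n = 4), 8.84% higher. The 19 genes of the 19S particle summed to 60020 ± 776 in KO against 58834 ± 1734 in WT (both SD, n = 4), 2.02% higher, within the spread of WT. The other 9 genes summed to 11347 ± 353 for KO and 11440 ± 311 for WT (both SD, n = 4). The ratio of the 20S to the 19S sum was 0.860, 0.781, 0.834 and 0.813 in KO and 0.769, 0.760, 0.747 and 0.805 in WT. KO library R2 again fell among the WT libraries. The sums are descriptions and carry no test, since genes of 1 library are not replicates. They are also led by the most abundant genes.

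**Figure D3:**
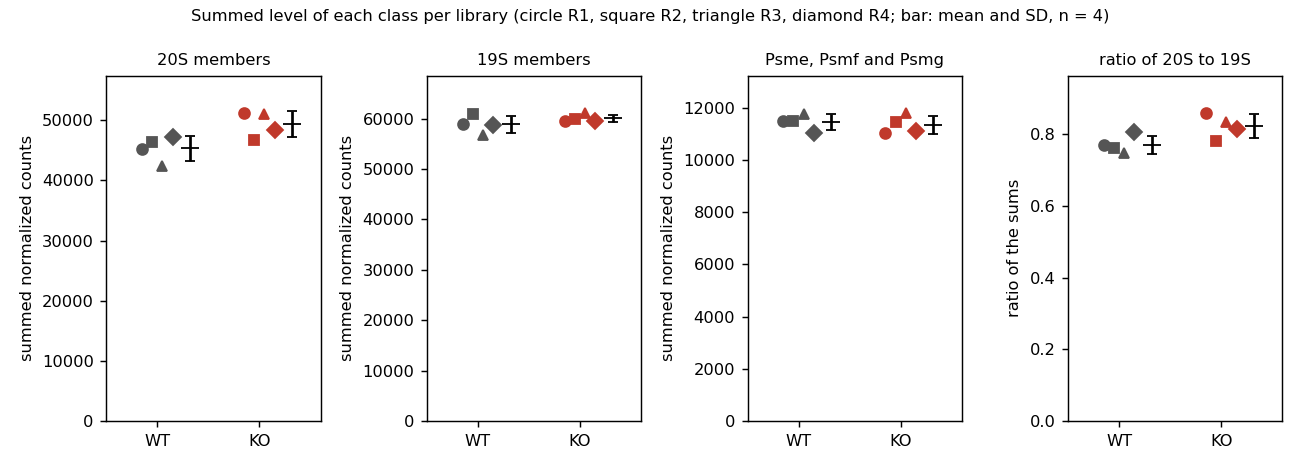
Summed normalized counts of the 16 core genes, the 19 genes of the 19S particle and the 9 others in each library, and the ratio of the first to the second sum, with mean and SD (n = 4). The core sum reaches from 46775 to 51248 in KO and from 42415 to 47218 in WT, while the 19S sums of both genotypes lie at about the same height.

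The core genes also varied together between libraries of a genotype. Over the 8 libraries, the deviations of 2 core genes from their genotype means had a median correlation of 0.73 (105 pairs, Psmb8 left out). It was 0.31 among 19S genes (171 pairs) and 0.34 between a core and a 19S gene (285 pairs). These values describe libraries that share depth and RNA, and have no test. No such value was taken over all genes or over other genes of similar length. Whether the correlation is particular to the core is therefore not known. Since the core genes vary together, the number of them on 1 side of 0 is not a number of independent observations.

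Per length of transcript, levels differed between the roles, with ranges that overlap. Mean levels over the 8 libraries, in normalized counts per kb of transcript, were 1368 to 3950 for the alpha subunits, 2349 to 3536 for the beta subunits without a catalytic site and 1706 to 4188 for the constitutive catalytic subunits. They were 1601 to 2665 for the ATPases and 684 to 3052 for the non-ATPase genes of the 19S particle. The lowest values among alpha subunits belong to Psma2 and Psma3, whose longest coding transcripts in the annotation are 2666 and 2846 bases long. The chaperones of the base had levels of 213 to 696, those of the alpha ring 393 to 604, the activators 581 to 1624 and Psmf1 173 normalized counts per kb. Psmb10 stood at 203 and Psmb8 at 7.14 normalized counts per kb, against 3137 for Psmb7 and 1706 for Psmb5.

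**Figure D4:**
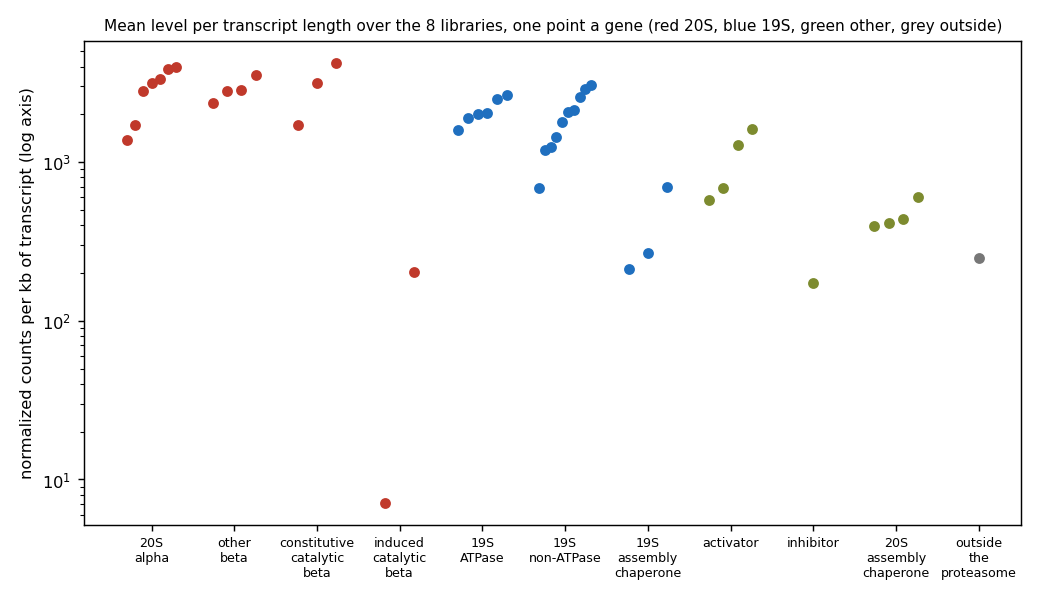
Mean level of each member over the 8 libraries, in normalized counts per kb of transcript on a log axis, by role. Psmb8 at 7.14 and Psmb10 at 203 lie below every constitutive subunit of the core, the lowest of which stands at 1368.

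Core genes have short transcripts, and in these libraries short genes in general had higher levels in KO. The median transcript length was 1162.5 bases for the 20S core, 1785 bases for the 19S particle and 3002.5 bases for all genes tested with a length. Among all genes under 1000 bases (707 genes) the median log2 fold change was 0.09 and 73.4% were above 0. The 5 core genes of that length had a median of 0.10. Between 1000 and 1500 bases the median of all 1137 genes was 0.03, that of the 8 core genes 0.13 and that of the 5 19S genes -0.0016. From 1500 to 2000 bases the 8 19S genes had a median of 0.03, against 0.0044 for all genes. Above 5000 bases the median of all genes was -0.03. When the trend with length was removed in each library, the median of the core was 0.08, with 14 of 16 above 0, and that of the 19S particle was -0.0015. Of the 9 called members, 7 then had an unadjusted p under 0.05 from edgeR, and Psma1 and Psme2 did not (unadjusted p = 0.0566 and 0.330). No other member passed, so that 7 members were higher in KO at this threshold, against 4.33% of all genes. When the trend with GC content was removed instead, 10 members were under 0.05 and higher in KO, against 4.57% of all genes. They held 7 of the 9, without Psma3 and Psma1 (unadjusted p = 0.0575 and 0.0505 from edgeR).

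**Figure D5:**
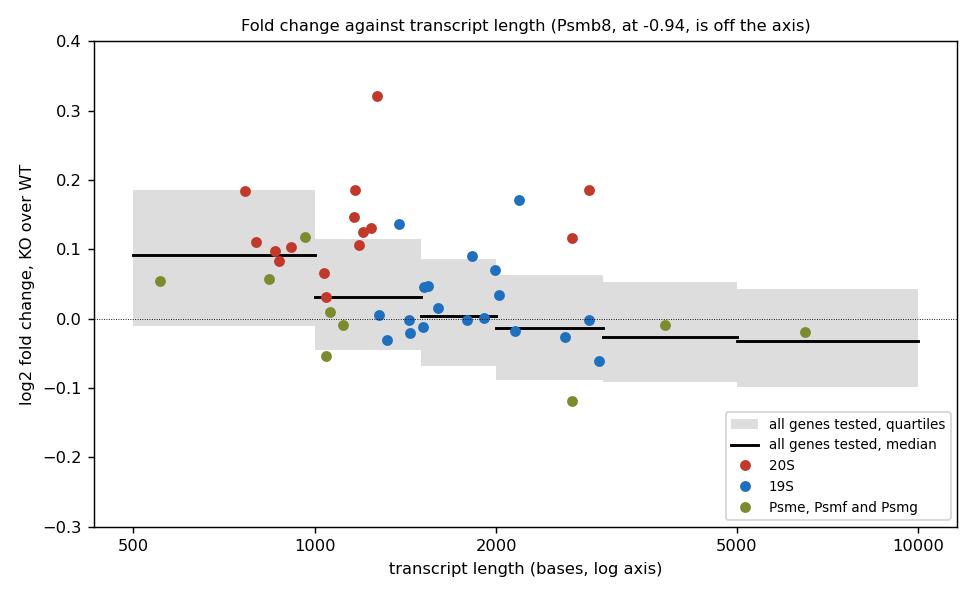
Log2 fold change of the members against the length of their transcript (log axis), over the median and quartiles of all genes tested in 6 ranges of length. The median of all genes goes from 0.09 under 1000 bases to -0.03 above 5000 bases; most core genes of 1000 to 1500 bases lie above the median of their range.

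Some members share stretches of sequence with other places in the genome, and reads from such stretches cannot be placed with certainty. Of the 45 members, 14 have windows that occur elsewhere, and 6 of these 14 were called, against 3 of the 31 without such windows (Psma1, Psmb10 and Psmd6). The 8 core genes without such windows had 0.11 as their median log2 fold change, with 7 above 0, and the 8 with them 0.14, with 8 above 0. The 3 members without overlap between genotypes all have such windows. Some members also share exon bases with a gene on the opposite strand, among them Psma4, Psma5, Psmb7, Psmb8, Psmc3, Psmd3, Psmd13 and Psme1, and Psmb5 holds the miRNA gene Mir686 on its own strand. The library kit keeps the strand, but the strand setting of the counting is not given in the sources used here.

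Proteasome genes are known to be induced together by Nfe2l1 through antioxidant response elements in their promoters. Promoter windows, from 250 bases before to 50 bases after a gene's start, were taken from RefSeq (GRCm38.p6) for 38 of the 45 members. The core of the element, TGACNNNGC on either strand, was present in 6 of 41 windows of members (14.6%), those of Psmb5, Psmb6, Psmc6, Psmd9, Psmd12 and Psme4. It was present in 12.4% of all 32851 windows. The AP-1 motif TGANTCA, which can overlap the element and did so in 0 of these windows, was present in 4.88% of member windows and 7.81% of all. CCAAT was present in 31.7% of member windows and 37.4% of all, with 6 of 14 windows of the core (42.9%) and 5 of 17 of the 19S particle (29.4%). Of the 9 called members, Psmc6 alone had TGACNNNGC in its window. The windows of 4 called members are shown, namely Psma4 and Psma3, with the smallest p, Psmc6, with the smallest p of the 19S particle, and Psmb10, with the largest fold change. In NCBIM37 they lie at chr9:54798416-54798715, plus strand (Psma4), chr12:72075360-72075659, plus strand (Psma3), chr14:45949249-45949548, plus strand (Psmc6) and chr8:108462243-108462542, minus strand (Psmb10). They were chosen after the values were seen. Capitals mark TGACNNNGC or CCAAT read on either strand.
Psma4: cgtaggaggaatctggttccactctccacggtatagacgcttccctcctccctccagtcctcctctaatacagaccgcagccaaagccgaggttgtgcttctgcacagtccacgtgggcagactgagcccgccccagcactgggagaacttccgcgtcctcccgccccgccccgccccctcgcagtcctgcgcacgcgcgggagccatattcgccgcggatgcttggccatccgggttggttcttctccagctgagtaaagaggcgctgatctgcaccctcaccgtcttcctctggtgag
Psma3: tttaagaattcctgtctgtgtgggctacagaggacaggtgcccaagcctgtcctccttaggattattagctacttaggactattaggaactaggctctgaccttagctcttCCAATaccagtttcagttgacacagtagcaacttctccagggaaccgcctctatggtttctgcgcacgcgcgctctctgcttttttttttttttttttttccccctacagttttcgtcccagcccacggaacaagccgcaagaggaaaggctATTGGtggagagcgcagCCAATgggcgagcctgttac
Psmc6: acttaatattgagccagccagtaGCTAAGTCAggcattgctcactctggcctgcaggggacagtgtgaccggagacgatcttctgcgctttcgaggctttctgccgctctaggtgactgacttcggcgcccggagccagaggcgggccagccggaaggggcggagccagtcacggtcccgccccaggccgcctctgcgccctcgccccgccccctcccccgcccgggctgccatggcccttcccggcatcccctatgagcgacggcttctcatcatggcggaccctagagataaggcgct
Psmb10: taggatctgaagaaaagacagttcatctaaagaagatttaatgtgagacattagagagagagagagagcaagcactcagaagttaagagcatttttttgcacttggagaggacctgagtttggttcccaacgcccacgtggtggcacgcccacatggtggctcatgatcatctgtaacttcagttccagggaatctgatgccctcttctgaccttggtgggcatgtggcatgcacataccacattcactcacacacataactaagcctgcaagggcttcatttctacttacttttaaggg
The windows of Psma4 and Psmb10 hold neither motif, that of Psma3 holds CCAAT in 3 places, and that of Psmc6 holds the core of the element once, on the reverse strand. A match of letters is a description of the sequence and not of a bound factor.

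Some other genes of the pathway were called too, all of them higher in KO. Of 41 tested genes in 5 lists, 5 had an unadjusted p under 0.05 and were higher in KO and 0 were lower, against 4.51% and 3.18% of all genes, and 0 passed an adjusted p of 0.05 with edgeR. Among the 12 assembly and associated factors tested, Pomp was called. Pomp, the chaperone that drives maturation of the core, had 3259, 2943, 3152 and 2981 normalized counts in KO and 2671, 2801, 2592 and 3037 in WT, with WT library R4 above 2 KO libraries (log2 fold change 0.15, unadjusted p = 0.0283 from edgeR). The 5 shuttle receptors tested, which bring ubiquitinated proteins to the proteasome, ranged from -0.08 to 0.06 and 0 were called. Paaf1, Ddi2 and H2-D1 were not analysed here.

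Of the 10 genes for transcription of proteasome genes, Nfe2l3 was called. Nfe2l3, a relative of Nfe2l1, had 331, 316, 339 and 298 normalized counts in KO and 238, 267, 215 and 159 in WT, without overlap. Means were 321 ± 17.9 for KO and 219.9 ± 46.0 for WT (both SD, n = 4), with a log2 fold change of 0.53 (standard error 0.14) and an adjusted p of 0.404 from edgeR. Nfe2l1 itself had a log2 fold change of -0.09 and Nfe2l2 -0.13, neither under an unadjusted p of 0.05. Among the genes of ubiquitin and its activation, Rps27a, which encodes ubiquitin fused to a ribosomal protein, was called. It had 15492, 12263, 14038 and 12575 normalized counts in KO and 11555, 11955, 10470.4 and 12171 in WT, without overlap (log2 fold change 0.24, unadjusted p = 0.0127 from edgeR). Pathway genes were not searched for copies elsewhere in the genome. Ubb, which encodes ubiquitin alone, had a log2 fold change of 0.0032.

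All 8 tested genes of class I antigen presentation, which uses peptides made by the proteasome, had a log2 fold change above 0, and 1 was called. Irf1, a transcription factor of the interferon response, had 49.97, 30.4, 24.1 and 33.7 normalized counts in KO and 16.4, 21.9, 23.8 and 18.6 in WT (log2 fold change 0.75, unadjusted p = 0.0200 from edgeR). Every KO library was above every WT library, KO library R3 only narrowly. KO library R1 held the highest level of Irf1, and no fit without that library is given for this gene. The 8 genes summed to 1894 normalized counts in KO library R1, to at most 1418 in the other KO libraries and to 1046 to 1302 in WT. KO library R1, with its high meningeal, endothelial and microglial markers, was thus also the highest for antigen presentation, and it was the highest library for Psmb10. Psme2 was higher in KO library R3 than in KO library R1. The part of these cells in the levels of Psmb10 was not tested.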

How the data were processed

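RNA with a poly(A) tail from the cortices of 8 embryos was sequenced as paired reads. The authors used Cutadapt 1.13 and Prinseq for trimming, TopHat2 2.0.13 and SAMtools 0.1.19 for mapping to mm9, and HTSeq-count for counting, and deposited raw whole-number counts per gene. The annotation release and the strand setting are not given in the sources used here. From these counts, KO and WT were compared in R 4.3.3 by the quasi-likelihood test of edgeR 4.0.16 (TMM normalization, filterByExpr, Benjamini-Hochberg adjustment over the 12699 genes tested, which hold 99.9% of counts). Standard errors were obtained as the absolute log2 fold change over the square root of F. Libraries of a genotype differed by a chi-square per degree of freedom of at least 5.73, so none repeats another. The table has 0 columns that were not used.

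The members and lists were chosen with earlier results of these data known. Values in every library are given for members under an unadjusted p of 0.05, without overlap, with a catalytic site or with the largest absolute change of their role, and pathway genes are named if called or without overlap. Other pathway genes, marker genes and the promoters printed were picked with their values in view. Members were checked against NCBIM37 (GENCODE vM1) for position, length of the longest coding transcript and windows of 100 bases, every 10 bases, that occur elsewhere (minimap2). Alternatives were DESeq2 1.42.0, its size factors, other filters on low counts, removal of trends with length or GC content and each library left out. The scripts were tested on simulated data. Protein sequences were not compared, and some genes of the pathway and marker lists are not reported here.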

Additional observations from a re-analysis of the deposited data

Results flagged for a closer look

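In 3 of 46 groups of 4 libraries, the highest or the lowest library lay farther from the others than Dixon's 95% critical value allows, where about 2.3 would be reached by chance. Psmb10 had 282 normalized counts in WT library R4, and the next highest WT library had 217. Psmb8 had 28.7 normalized counts in the same library, and the next highest WT library had 13.1. Both are induced catalytic subunits. Psmc1 had 3849 normalized counts in WT library R3, below the next lowest WT library with 4008.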

How the results depend on the processing

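The number of members with an unadjusted p under 0.05 and higher in KO moved from 9 to 14 with DESeq2, where all 9 remained, to 3 among members without windows found elsewhere, and to between 4 and 12 with each library left out. It was 4 without KO library R3 and without WT library R1. The number without overlap moved from 3 to 5 with no filter on low counts, to 0 among members without windows found elsewhere, and to between 4 and 13 with each library left out, where groups of 3 libraries overlap less often by construction. The share of all genes without overlap was not counted in these settings, so these numbers have no background to be read against. The member past the fold change threshold, Psmb10, was lost without KO library R4, WT library R1 or WT library R2, a range of 0 to 1. Among members without windows found elsewhere, chosen as an alternative after seeing the data, 7 of 8 core genes were above 0, against 15 of 16. With each library left out, the median of the core ranged from 0.09 to 0.15 and that of the 19S particle from -0.0089 to 0.02. The 0 members past an adjusted p of 0.05 and the 0 lower in KO stayed at 0 in every setting. Psmf1 (-0.0089) changed sign with DESeq2 (0.0014), with no filter (0.00073), with the trend with length (0.0118) or GC content (0.0077) removed, and lay between -0.0324 and 0.0233 in the fits without 1 library. Psmg3 was -0.02 (-0.0187) with the trend with length removed. The other 253 of 261 comparisons of named members with an alternative kept their direction and their side of an adjusted p of 0.05. At an unadjusted p under 0.05, 3 of the 9 called members stayed called in every fit without 1 library. The number of 19S genes above 0 was 10, and it was 13 with DESeq2 and 9 to 15 with each library left out. The cause was not tested where none is named. Nuak1 was not tested with at least 10 counts in every library, and Psmb8 was dropped by that filter and in some fits with a library left out.

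No paired analysis was possible because only the genotype and a running number name each library in the table, so litter as a block was not run. Depth limits Psmb8, with at most 18 counts in a library.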
